A study of Mus musculus with 18 samples.

Results

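The nuclear-encoded subunits of mitochondrial complex I were followed across 3 array tables of the mouse brain, with Ndufa12 set beside the other subunits. The list held 36 genes, chosen because Ndufa12 was higher in the knockout in the table labelled rest. A probe set was taken as a member where the platform annotation gave it exactly 1 of these genes. This held for 67 of 22626 probe sets on the cortex A chip, 9 of 22511 on the cortex B chip and 76 of 45037 in the rest table. Of the 36 genes, 34 had such a probe set, out of 18193 genes with one in the whole series, and 33 had at least 1 that could be tested. Ndufa11 and Ndufs6 were represented by probe sets annotated to several genes, and the probe set of Ndufb4 had no value on most arrays.

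Wild-type mice and mice with a conditional Brca1 knockout in the brain were compared at postnatal day 7, with 3 arrays per genotype in each table. In the conditional knockout, 1 Brca1 allele had loxP sites around exons 5 to 13 and was to be removed by a Cre recombinase under nestin control, which acts in neural progenitors and their descendants. The other allele was null through an inverted neo cassette in exon 11. Cortex RNA was run on an A chip and a B chip, and the rest samples are described only as brain, without the regions they covered. The labels do not say which of these alleles the wild-type mice carried, nor whether cortex and rest arrays came from the same animals. The p-values therefore measure the spread between these arrays. Probe sets of Y-linked genes were listed on knockout replicates 1 and 2, and not on 3, in every table. Arrays of the same number may share animals, which was not tested. The cortex values of Ndufa12 therefore cannot be taken as an independent check of its rise in rest. The values are deposited MAS5 signals, an Affymetrix summary of the brightness of the short probes that make up a probe set, with an empty cell where no signal was listed.

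Complex I takes electrons from NADH, passes them along iron-sulphur clusters to ubiquinone and pumps protons across the inner mitochondrial membrane. Its core subunits carry out this chemistry, and a larger number of accessory subunits surround them and are needed for assembly and stability. NDUFA12 is an accessory subunit of the peripheral arm that projects into the matrix, where NADH is oxidised. It is related in sequence to the assembly factor NDUFAF2, whose place it takes late in assembly. In the brain, inherited loss of single subunits is a known cause of Leigh syndrome.

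Neither the probe sequences nor protein sequences were among the sources used here, so the sequences shown are upstream regions, each the 250 bases before the annotated start in RefSeq (GRCm38.p6), written 5′ to 3′ on the strand of the gene. Ndufa12 is shown because its probe sets are those the results turn on, at chr10:94198785-94199034 on the plus strand. Ndufa8 at chr2:36049339-36049588 and Ndufs5 at chr4:123718187-123718436, both on the minus strand, are shown as members that hold the core motif of the transcription factor NRF1, a regulator of many nuclear genes for mitochondrial proteins. Capitals mark matches to the letters GCGCANGCG on either strand.
Ndufa12: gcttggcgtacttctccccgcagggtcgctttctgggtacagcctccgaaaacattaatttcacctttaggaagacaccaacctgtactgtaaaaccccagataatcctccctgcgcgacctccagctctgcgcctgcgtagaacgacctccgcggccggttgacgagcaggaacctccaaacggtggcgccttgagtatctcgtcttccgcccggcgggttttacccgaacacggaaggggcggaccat
Ndufa8: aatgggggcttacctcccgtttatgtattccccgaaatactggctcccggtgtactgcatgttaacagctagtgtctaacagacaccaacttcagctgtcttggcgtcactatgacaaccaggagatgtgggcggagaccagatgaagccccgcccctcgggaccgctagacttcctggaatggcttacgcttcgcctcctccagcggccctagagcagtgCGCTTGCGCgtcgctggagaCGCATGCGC
Ndufs5: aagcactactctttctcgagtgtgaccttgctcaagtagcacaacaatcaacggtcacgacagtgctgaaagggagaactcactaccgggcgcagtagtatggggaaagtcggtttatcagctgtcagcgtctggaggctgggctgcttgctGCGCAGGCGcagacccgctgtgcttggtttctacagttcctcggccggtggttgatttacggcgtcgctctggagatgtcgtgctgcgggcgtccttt
The NRF1 letters were present in 7 of 35 member regions (20.0%), belonging to 6 genes, and in 5.16% of all 32851 regions of this length. Besides Ndufa8 and Ndufs5 these genes were Ndufa5, Ndufa11, Ndufb4 and Ndufs6. The region of Ndufa12 held no match to these letters, nor to the other 3 motifs searched on both strands. Those were CCGGAAG, bound by ETS factors, in 8.57% of member regions and 6.91% of all, CCAAT, in 28.6% and 33.8%, and TATAAA, in 14.3% and 12.4%. Motifs overlapping each other were counted separately. The GC content was 58.4% for Ndufa12, with a median of 57.6% over the member regions and 52.4% over all regions.

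In the cortex, both Ndufa12 probe sets with the suffix x_at rose in the knockout, and the Ndufa12 probe set with the suffix s_at did not pass the test. The suffix x_at marks a set in which some probes are highly similar to sequences of other genes, and s_at one whose probes match several transcripts. No other complex I member passed. The test was limma across the 12065 probe sets of the A chip that had enough signal, on log2(signal + 16), with 3 arrays per genotype, and a call was a Benjamini-Hochberg adjusted p under 0.05.

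The scaled signal of the Ndufa12 probe set 1455806_x_at was 1005.5, 1021.1 and 1051.7 on the wild-type cortex arrays and 1722.9, 1705.4 and 1587.5 on the knockout arrays. The genotypes did not overlap, and the lowest knockout array lay far above the highest wild-type array. The means were 1026.1 ± 23.5 and 1671.9 ± 73.7 (SD, n = 3 each). This was a 1.62-fold rise, a log2 change of 0.70 with a standard error of 0.0677 and a limma adjusted p = 0.000292.

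The scaled signal of 1433513_x_at was 849.64, 958.86 and 770.21 in wild-type cortex and 1279.5, 1329.6 and 1195.0 in knockout cortex. Again no knockout array overlapped a wild-type array. The means were 859.57 ± 94.7 and 1268.0 ± 68.0 (SD, n = 3 each), and the 1.47-fold rise was a log2 change of 0.56 with a standard error of 0.0895 and a limma adjusted p = 0.00662. When a term for the expression of Y-linked genes was added, the log2 change was 0.47 and the limma adjusted p = 0.175, so the call was lost in that fit.

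The scaled signal of 1418814_s_at was 843.06, 996.34 and 1052.9 in wild-type cortex and 975.3, 994.08 and 899.2 in knockout cortex. All knockout arrays lay within the wild-type range. The means were 964.1 ± 109 and 956.19 ± 50.2 (SD, n = 3 each). The log2 change was -0.01, with a 95% interval from -0.21 to 0.20 and a limma adjusted p = 0.981. This interval does not reach the lower bounds of the x_at sets, 0.55 for 1455806_x_at and 0.36 for 1433513_x_at. The fourth Ndufa12 probe set, 1425919_at, had no listed signal on any cortex array, and the B chip held no Ndufa12 probe set.

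**Figure D1:**
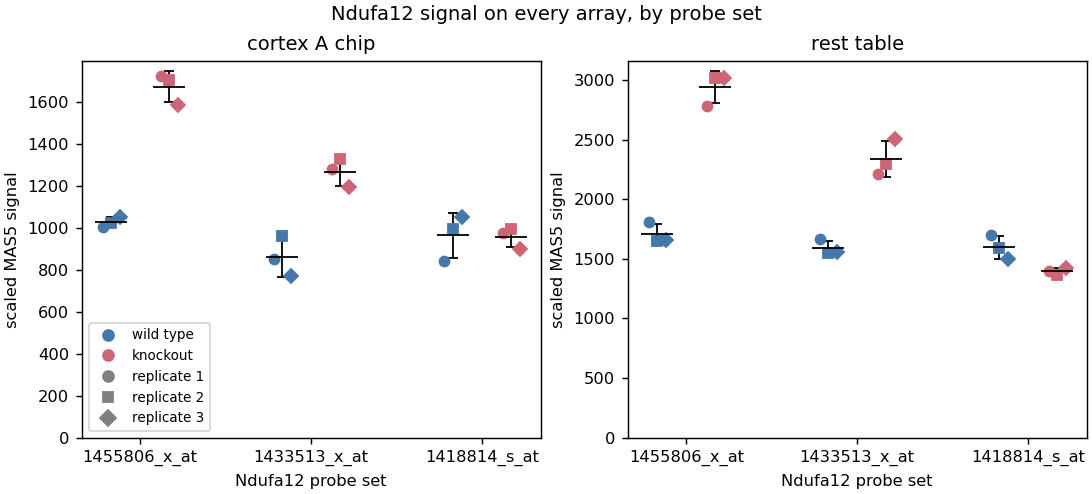
Scaled MAS5 signal (vertical axes, linear, from 0) of the 3 Ndufa12 probe sets with signal, on the 6 cortex A chip arrays and the 6 rest arrays. Blue is wild type and red is knockout, marker shape gives the replicate, and horizontal lines with bars are means ± SD (n = 3). Both x_at sets are separated by genotype in each table (for 1455806_x_at in cortex 1026.1 against 1671.9), while the s_at set overlaps in cortex (964.1 against 956.19) and is lower in the knockout in rest.

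The platform annotation tied 1418814_s_at to a RefSeq transcript of Ndufa12 and 1455806_x_at to a single GenBank sequence, and it listed no sequence for 1433513_x_at. RefSeq also holds a pseudogene of it, Ndufa12-ps, on chromosome 5, whereas Ndufa12 lies on chromosome 10. The annotation assigned 0 probe sets to the pseudogene. Which transcripts the x_at probes hybridised with could not be read from the sources used here. Of all 886 tested x_at probe sets of the A chip, 38 rose (4.29%), against 2.3% of all tested probe sets.

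Of the 63 tested member probe sets on the A chip, 2 rose and 0 fell, both of them Ndufa12. Over the whole chip, 3.02% of tested probe sets were called, 2.3% as higher and 0.713% as lower in the knockout. Across all 60 tested probe sets of the other 32 genes, limma called 0, and 3 had an unadjusted p under 0.05, a level that 15.7% of all tested probe sets reached. Their log2 changes ran from -0.22 for a probe set of Ndufv1 to 0.27 for Ndufa13, with a median of 0.02 beside -0.01 over all tested probe sets. For 55 of the 60 the 95% interval of the change lay within 0.5 on the log2 scale on either side of 0. The knockout lay wholly above the wild type for 4 of the 60 and wholly below for 1, where the shares over the chip were 11.6% and 10.8%. Ordered by signed log2 change from the highest, the x_at sets of Ndufa12 were at places 1 and 2 among the 63, and at 192 and 345 among all 12065 tested probe sets. Bulk signals of this kind do not tell apart fewer cells of a type and less RNA per cell.

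The 12 tested x_at probe sets of 8 other subunits had log2 changes from -0.20 for Ndufv1 to 0.24 for Ndufs8, with a median of 0.01. None was called by limma, none had an unadjusted p under 0.05, and the lowest adjusted p was 0.462. These 12 are few beside the 886 x_at sets of the chip, of which 4.29% rose, and say nothing of what the Ndufa12 sets read. Ndufa7 had 3 x_at sets in cortex, with changes of 0.07, -0.09 and -0.11. Ndufs8, an iron-sulphur core subunit, also had 3, with changes of 0.06, 0.24 and 0.11.

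**Figure D2:**
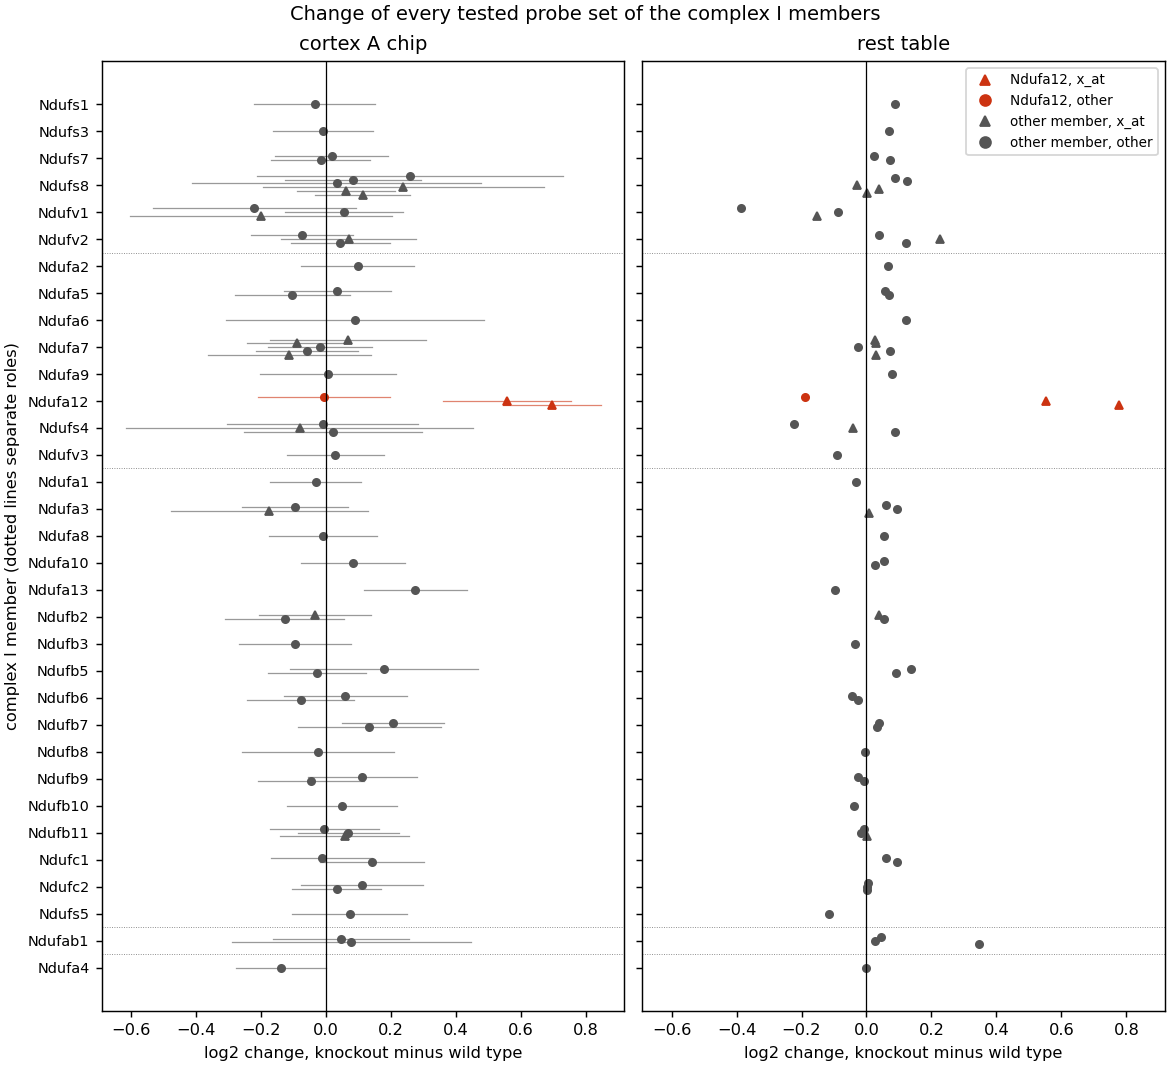
Log2 change (knockout minus wild type, horizontal axes) of every tested member probe set, in rows by gene and in blocks by role (core peripheral, accessory peripheral, accessory membrane, Ndufab1, Ndufa4). Triangles are x_at sets, circles other sets and red is Ndufa12. Lines in the cortex panel are 95% intervals from limma. The rest panel shows values without intervals because the list was chosen for the rise of Ndufa12 in that contrast. Outside Ndufa12, the cortex values lie between -0.22 and 0.27.

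The core subunits of the peripheral arm hold the flavin and the iron-sulphur clusters. Their 16 tested probe sets, from 6 genes, had a median log2 change of 0.04 in cortex. There were 0 calls among them (3.02% of all tested probe sets), with a lowest limma adjusted p of 0.462. Ndufv1, which binds NADH and the flavin, had changes of -0.22, -0.20 and 0.06 over its 3 probe sets. The set at -0.22, 1415966_a_at, read 452.45, 351.04 and 291.42 in wild type and 291.56, 331.9 and 295.59 in knockout, so wild-type replicate 1 was the highest and the other arrays overlapped. Ndufv2, which sits beside Ndufv1 and carries an iron-sulphur cluster, had changes of -0.08, 0.04 and 0.07. Ndufs1, the largest core subunit, read 653.14, 681.69 and 646 in wild type and 661.73, 686.45 and 586.16 in knockout, a change of -0.04. Ndufs3 was at -0.01, and Ndufs7, which carries the last cluster before ubiquinone, was at -0.02 and 0.02. For Ndufs8 all 6 probe sets were above 0, from 0.03 to 0.26, and its set at 0.26 had wild-type values from 457.63 to 912.93, a range that held the lowest knockout array at 679.27.

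The accessory subunits of the peripheral arm other than Ndufa12 are its nearest relatives by place in the complex. Their 14 tested probe sets, from 7 genes, had a median log2 change of -0.0032 in cortex, ranging from -0.11 for Ndufa7 to 0.10 for Ndufa2. limma called 0 of them (3.02% of all tested probe sets) and 0 had an unadjusted p under 0.05 (15.7% of all tested). The lowest limma adjusted p among the 14 was 0.592. Ndufs4, needed for a late step in assembly of the NADH-oxidising module, read 505.82, 692.33 and 559.09 in wild type and 653.93, 515.34 and 605.72 in knockout with its brightest set. That was a change of 0.02, and its other sets, both dim, gave -0.01 and -0.08. Ndufa9, which lies by the ubiquinone site, was at 0.00, Ndufa6 at 0.09, Ndufv3 at 0.03, and Ndufa5 at 0.03 and -0.10. In each of these the genotypes overlapped.

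The accessory subunits of the membrane arm formed the largest block, with 27 tested probe sets from 17 genes on the A chip. Their median log2 change was 0.03. By limma 0 were called (3.02% of all tested probe sets) and 2 had an unadjusted p under 0.05 (15.7% of all tested). The largest change was that of Ndufa13, also known as GRIM-19, whose single probe set read 1880.2, 1909.8 and 1732.5 in wild type and 2359.1, 2094.6 and 2238.1 in knockout. The genotypes did not overlap, yet the log2 change of 0.27 (standard error 0.0713) had a limma adjusted p = 0.0736 and was not called. Over 19 alternative settings this adjusted p ran from 0.0508 to 0.368.

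Ndufb7 read 1188, 1117.7 and 1216.4 in wild type and 1403, 1280.3 and 1384.7 in knockout with 1416417_a_at, again without overlap. Its log2 change was 0.21 with a limma adjusted p = 0.181, and its other set gave 0.13 with overlapping genotypes. Ndufc1 had 1 set without overlap, 772.64, 779.12 and 832.16 against 872.28, 909.78 and 850.94, a change of 0.14 with a limma adjusted p = 0.391, while its other set gave -0.01. The fourth set without overlap among members other than Ndufa12 was 1455283_x_at of Ndufs8, at 0.11 with a limma adjusted p = 0.462.

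The other membrane-arm accessory subunits gave smaller or overlapping differences in cortex. Ndufa3 was at -0.18 and -0.10, Ndufb2 at -0.13 and -0.03, Ndufb3 at -0.10 and Ndufb8 at -0.03. Ndufa8, which carries disulphide-forming cysteine pairs, was at -0.01, Ndufs5 at 0.07, Ndufb10 at 0.05 and Ndufa10 at 0.08. Ndufb5 was at -0.03 and 0.18, Ndufb6 at -0.08 and 0.06, Ndufb9 at -0.05 and 0.11, and Ndufc2 at 0.03 and 0.11. On the cortex B chip, where 0.281% of 7838 tested probe sets were called, 2 member probe sets were tested. Ndufa3 had a log2 change of 0.27 and Ndufc2 of 0.03, limma called 0, 0 had an unadjusted p under 0.05 (7.39% of all tested) and the lower adjusted p was 0.901.

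Ndufab1, the mitochondrial acyl carrier protein that is also bound within complex I, had changes of 0.04 and 0.08 in cortex. Ndufa4, first described in complex I and later assigned to complex IV, read 2810.4, 2975.8 and 2958.2 in wild type and 2766.9, 2555.7 and 2607.9 in knockout. It was the member whose knockout arrays all lay below the wild type, with a log2 change of -0.14 and a limma adjusted p = 0.312, so it was not called. In rest its difference was -0.0027.

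Ndufa1 and Ndufb11, both small membrane-arm subunits, are the members on the X chromosome. This bears on the groups because probe sets of Y-linked genes were listed on knockout replicates 1 and 2 and not on knockout replicate 3 in each table, and on none of the wild-type cortex arrays. On the A chip, 4 of 6 Y-linked probe sets were listed on those 2 arrays, and in rest 7 of 9 were, with 1 of 9 on wild-type replicate 2. Ndufa1 read 2453.8, 2464.8 and 2543 in wild-type cortex and 2550.5, 2439.2 and 2312.1 in knockout, a log2 change of -0.03 with a limma adjusted p = 0.86. Ndufb11 read 1573.4, 1618.1 and 1838.5 in wild type and 1693.7, 1707.2 and 1599.7 in knockout with 1416056_a_at. Its set 1416057_at read 1654.9, 1551.9 and 1769.5 in wild type and 1787.7, 1688.5 and 1735 in knockout, and 1455911_x_at 1379.1, 1363.6 and 1540.3 in wild type and 1671.1, 1457.2 and 1339.9 in knockout. All 3 overlapped between genotypes, with log2 changes of -0.01, 0.07 and 0.06 and with limma adjusted p of 0.981, 0.714 and 0.82. For 1455806_x_at of Ndufa12, knockout replicate 3, at 1587.5, was also above all wild-type arrays, and with the Y-linked term the log2 change was 0.62 (limma adjusted p = 0.0202).

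Where a gene had several probe sets, Ndufa12 showed the widest disagreement among them in cortex. On the A chip, 18 members had more than 1 tested probe set, and for 12 of them the log2 changes differed in sign. The span from the lowest to the highest change was 0.70 for Ndufa12, followed by 0.28 for Ndufv1 and 0.23 for Ndufs8. In rest, signs differed for 5 of 19 such members, and the spans were 0.97 for Ndufa12 and 0.32 for Ndufab1, the next widest. Since Ndufa12 was chosen on the rest contrast, its place there is a description and supports nothing.

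The members with disagreeing signs other than Ndufa12 showed overlapping genotypes in cortex in every set but 1448284_a_at of Ndufc1. Among the core subunits, Ndufv1 read 803.36, 969.2 and 877.88 in wild type and 905.08, 912.09 and 930.71 in knockout with 1415967_at (0.06), where the number in brackets is the log2 change, here and below. Its 1456015_x_at read 519.38, 334.04 and 282.8 in wild type and 307.76, 356.55 and 290.07 in knockout (-0.20), and as in 1415966_a_at the highest array was wild-type replicate 1. Ndufv2 read 1558.1, 1674.5 and 1711.7 in wild type and 1569.7, 1477.8 and 1644.3 in knockout with 1428179_at (-0.08). With 1452692_a_at it read 1032.3, 1032.3 and 1103.7 in wild type and 1056.5, 1114.7 and 1094 in knockout (0.04), and with 1438159_x_at 929.34, 1075.7 and 1170.9 in wild type and 1096.7, 1190.7 and 1038.5 in knockout (0.07). Ndufs7 read 795.58, 805.56 and 809.91 in wild type and 789.46, 792.3 and 801.08 in knockout with 1451312_at (-0.02) and 583.22, 566.17 and 615.02 in wild type and 602.42, 569.67 and 612.85 in knockout with 1424313_a_at (0.02), a narrow spread on every array.

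Among the accessory subunits of the peripheral arm, Ndufa5 read 703.91, 714.4 and 709.36 in wild type and 708.34, 770.85 and 702.35 in knockout with 1417285_a_at (0.03) and 955.47, 912.34 and 970.61 in wild type and 896.78, 941.96 and 802.58 in knockout with 1417286_at (-0.10). The dim sets of Ndufs4 read 75.309, 68.796 and 68.77 in wild type and 76.516, 63.653 and 71.037 in knockout with 1418117_at (-0.01) and 84.884, 51.398 and 48.921 in wild type and an empty cell, 70.77 and 43.646 in knockout with 1438166_x_at (-0.08). Ndufa7 had 5 tested sets, more than any other member of this block. Its 1450818_a_at read 1229.7, 1387.4 and 1304.6 in wild type and 1272.7, 1277.4 and 1208.9 in knockout (-0.06), and 1436567_a_at 960.36, 912.14 and 889.5 in wild type and 945.19, 901.26 and 878.13 in knockout (-0.02). Its 1422976_x_at read 677.08, 595.4 and 718.48 in wild type and 594.42, 763.43 and 736.76 in knockout (0.07), 1428360_x_at 1357.7, 1287.5 and 1311.2 in wild type and 1311.9, 1173.9 and 1234.3 in knockout (-0.09), and 1455749_x_at 208.07, 212.45 and 237.39 in wild type and 219.74, 181.84 and 203.78 in knockout (-0.11). The sign differed even among x_at sets annotated to this gene, within the spread between arrays.

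Among the accessory subunits of the membrane arm, Ndufb5 read 1121.1, 1104.2 and 1078.9 in wild type and 1060.3, 1128.6 and 1049.8 in knockout with 1448589_at (-0.03) and 466.02, 411.38 and 374.03 in wild type and 432.49, 580.89 and 418.4 in knockout with 1417102_a_at (0.18), where knockout replicate 2 was the highest. Ndufb6 read 546.61, 527.3 and 552.97 in wild type and 515.1, 601.14 and 583.65 in knockout with 1434056_a_at (0.06) and 1516.9, 1304.3 and 1401.1 in wild type and 1319, 1295.4 and 1373.4 in knockout with 1434057_at (-0.08). Ndufb9, which has the LYR motif that binds the acyl carrier protein, read 1724.1, 1668.7 and 1616.4 in wild type and 1953.8, 1820.9 and 1650.4 in knockout with 1436803_a_at (0.11) and 2132, 2144.2 and 2336.9 in wild type and 2135.2, 2294.1 and 1980.8 in knockout with 1452184_at (-0.05). The second set of Ndufc1, 1416285_at, read 1311.8, 1225.9 and 1379 in wild type and 1255.7, 1320.3 and 1297.2 in knockout (-0.01), with its genotypes overlapping.

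A comparison within each array removed differences shared by all subunits. The mean log2 level of 57 probe sets of the other subunits lay between 9.90 and 9.94 on every cortex array and differed by 0.02 between genotypes. Relative to that mean, the 3 Ndufa12 sets together stood at -0.08, 0.06 and 0.01 in wild type and at 0.42, 0.43 and 0.34 in knockout. The difference of 0.40 had an exact two-sided permutation p = 0.1, the smallest that 3 against 3 arrays allow, so this test could not pass 0.05. With the x_at sets alone the difference was 0.61, also at p = 0.1 in the exact permutation test, and with the s_at set alone it was -0.02, at p = 0.8. These splits by suffix were chosen after the data were seen. The x_at mean relative to the s_at set was 0.13, -0.01 and -0.22 in wild type and 0.60, 0.59 and 0.61 in knockout, so the change was unequal between probe sets annotated to the same gene. The exact permutation p of that difference, 0.63, was 0.1.

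**Figure D3:**
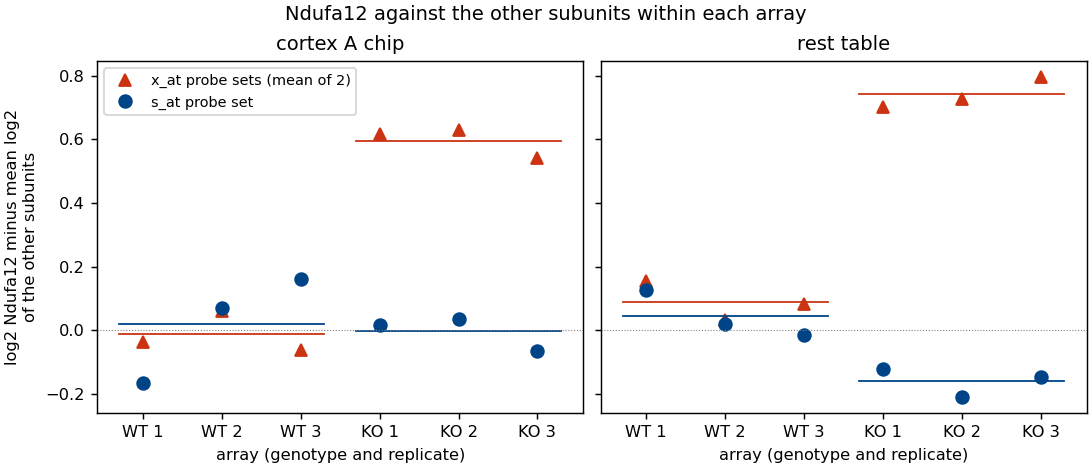
Log2 signal of Ndufa12 minus the mean log2 signal of the other subunits on the same array (vertical axis) for each wild-type (WT) and knockout (KO) array. Red triangles are the mean of the 2 x_at sets, blue circles the s_at set, and lines the means of 3 arrays. In cortex the x_at values lie between -0.06 and 0.06 in wild type and between 0.54 and 0.63 in knockout, while the s_at values of the genotypes overlap.

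The list was chosen because Ndufa12 rose in the rest table, so the member values of that table are given without tests. With 1455806_x_at, Ndufa12 read 1808.2, 1651.7 and 1659.4 in wild type and 2782.8, 3014.1 and 3018.9 in knockout, a 1.72-fold difference in means on the fitted scale. With 1433513_x_at it read 1661.9, 1545.9 and 1553 in wild type and 2209.2, 2292.9 and 2506.3 in knockout, a 1.47-fold difference. Both knockout groups lay wholly above the wild type. With 1418814_s_at it read 1699, 1586.8 and 1499.3 in wild type and 1396.6, 1365.5 and 1423 in knockout, so here the knockout lay wholly below, at a log2 difference of -0.19. The set 1425919_at was listed on 2 wild-type arrays alone, at 25.1 and 13.6, and could not be compared.

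Side by side, the log2 difference of 1455806_x_at was 0.70 in cortex and 0.78 in rest, that of 1433513_x_at 0.56 and 0.55, and that of 1418814_s_at -0.01 and -0.19. Within the rest arrays, Ndufa12 stood 0.65 higher in knockout relative to the other subunits by its x_at sets and -0.20 by its s_at set. The rest contrast chose Ndufa12 and so led to this list, and its calls are a description that supports nothing about the members. Among their 66 probe sets these calls were the 2 x_at sets of Ndufa12 as higher and 0 as lower. The shares of all 21407 probe sets were 0.145% as higher and 0.168% as lower. Without the variance trend the first count was 0.

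The 63 rest probe sets of the other 32 members had a median log2 difference of 0.03, and 53 of them lay within 0.1 of 0. The knockout lay wholly above the wild type for 6 and wholly below for 0, where the shares over the table were 8.42% and 9.13%. The lowest was Ndufv1 at -0.38, with 1415966_a_at. It read 1060.1, 490.08 and 509.04 in wild type and 430.86, 491.04 and 550.75 in knockout. Wild-type replicate 1 alone stood high, and without it the difference was -0.03. The same array was high for 1456015_x_at of Ndufv1, at 939.33 against 547.48 and 545.55 on the other wild-type arrays, and the difference of -0.15 became 0.10 without it.

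At the other end was Ndufab1 at 0.35, from a dim probe set that read 30.6, 41.8 and 42.8 in wild type and had 45.8, 60.5 and 1 empty cell in knockout. The brighter Ndufab1 sets were at 0.05 and 0.03. Ndufv2 had 1438159_x_at at 1733.3, 1635.4 and 1753 in wild type and 1820.1, 2108.5 and 2080.1 in knockout, a log2 difference of 0.23 without overlap. Ndufs4 was at -0.22 by its dim set 1418117_at, which was at 0.16 with the Y-linked term. Its brightest set was at 0.09 and its other dim set at -0.04. Ndufa13 and 1416417_a_at of Ndufb7, whose cortex genotypes did not overlap, were at -0.10 and 0.04 in rest.

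Genes of complexes II to V, of complex I assembly and of mitochondrial content and biogenesis were read from 6 lists holding 75 genes. None was called in any table by limma. On the A chip 111 probe sets of 64 of these genes were tested, of which 0 rose, 0 fell and 8 had an unadjusted p under 0.05. Over the whole chip 2.3% rose, 0.713% fell and 15.7% had such a p. The median log2 change was -0.01, equal after rounding to that of all tested probe sets. On the B chip 0 of 9 probe sets were called and 1 had an unadjusted p under 0.05, beside 0.281% and 7.39% of all tested. In rest 0 of 136 were called and 8 had such a p, beside 0.313% and 10.5%.

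The complex I assembly factors, 10 genes with 11 tested probe sets on the A chip, had a median log2 change of -0.04, from -0.19 for Ndufaf4 to 0.04 for Ndufaf7. Ndufaf2, the assembly factor related to NDUFA12, was on the B chip and read 571.96, 595.84 and 666.17 in wild type and 508.86, 467.94 and 488.01 in knockout. Its knockout arrays lay below the wild type, at a log2 change of -0.31 and a limma adjusted p = 0.676, so it was not called. In rest the difference was -0.05.

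Complex II, which feeds electrons from succinate, had a median change of 0.06 over 7 probe sets on the A chip, with Sdhc highest at 0.28. Complex III had a median of 0.01 over 13 probe sets, from -0.18 for Uqcrb to 0.30 for Uqcr10. Complex IV, the terminal oxidase, had a median of -0.06 over 21 probe sets, from -0.17 for Cox5a to 0.31 for Cox6c. Complex V, the ATP synthase, had a median of -0.0027 over 27 probe sets. Its Atp5l had the lowest adjusted p of all lists, 0.085 by limma, with 917.17, 950.81 and 1015 in wild type and 1276.7, 1136.2 and 1128.1 in knockout, a log2 change of 0.29. Genes of mitochondrial content and biogenesis, among them the citrate synthase gene Cs and the regulators Tfam and Ppargc1a, had a median of -0.015 over 32 probe sets, from -0.36 for a set of Tomm22 to 0.43 for a set of Tomm20. In rest the medians of the 6 lists lay between 0.0041 and 0.06.

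**Figure D4:**
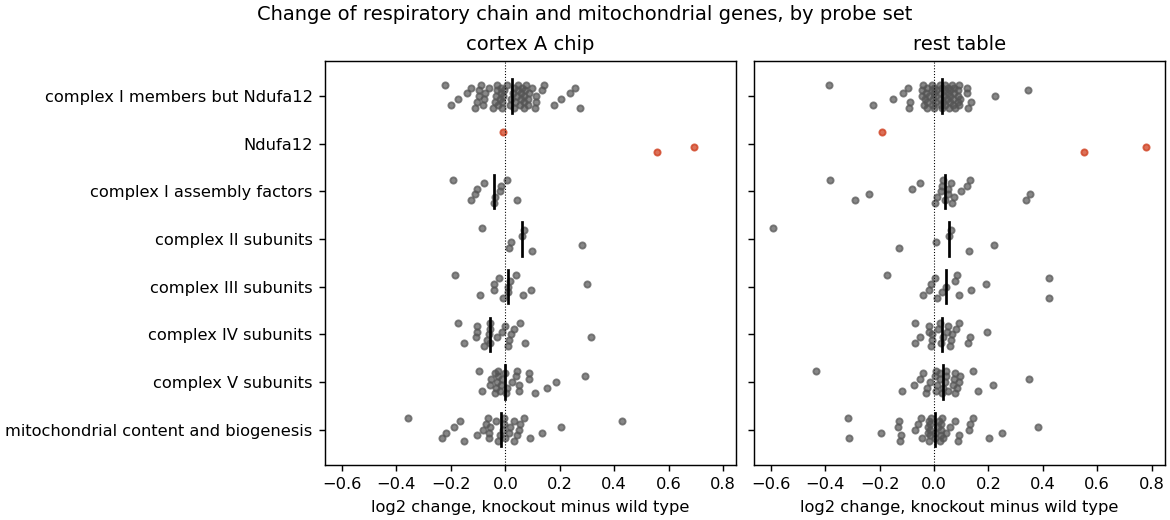
Log2 change (knockout minus wild type, horizontal axes) of each tested probe set (1 point each, spread vertically for legibility) for complex I members, Ndufa12 (red) and 6 other lists in the cortex A chip and rest tables. Black bars are medians, which lie between -0.06 and 0.06 in every list shown. The 2 x_at sets of Ndufa12 lie above all other points of both panels, which in rest is a description because Ndufa12 was chosen on that contrast.

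The members are spread over 15 chromosomes. None lies on chromosome 11, which carries Brca1, and Ndufs7 is the other member on chromosome 10, where Ndufa12 lies. Among 42 genes within 1 Mb of Ndufa12 in RefSeq, 5 were tested on the A chip with 9 probe sets. Of these sets limma called 0 (3.02% of all tested), and 1 had an unadjusted p under 0.05 (15.7% of all tested). Their median log2 change was 0.07, and the highest was the transcription factor Elk3 at 0.56 (limma adjusted p = 0.256). Nr2c1, the gene next to Ndufa12, read 60.7, 62.1 and 47.7 in wild type and 54.9, 57.6 and 63.3 in knockout on the A chip. That was a change of 0.04 from a dim set. Its set 1439490_at on the B chip was at -0.28 (limma adjusted p = 0.901), and its tested sets in rest were at -0.03, 0.03 and 0.16.

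On the B chip 10 neighbouring genes were tested with 17 probe sets, of which 2 had an unadjusted p under 0.05 by limma (7.39% of all tested). Vezt, which encodes the adherens junction protein vezatin, fell with 1 of its 3. Its set 1455472_at read 658.59, 695.81 and 627.08 in wild type and 393.93, 398.14 and 315.49 in knockout, a log2 change of -0.82 with a limma adjusted p = 0.0454. That call was lost in 10 of 19 alternative settings, including each in which 1 array was left out. The other Vezt sets were at -0.56 and -0.18, and on this chip 0.051% of tested probe sets were called as lower. In rest 0 of 28 neighbouring probe sets were called, with 7 at an unadjusted p under 0.05, beside 0.313% and 10.5% of all tested. There, neighbours differed in both directions. As lower, 4 of 5 probe sets of Tmcc3 lay between -0.70 and -0.55, and Vezt was at -0.20, -0.19 and -0.17. As higher, Cep83os was at 0.59 without overlap, and Plxnc1 at 0.42, 0.29, 0.27 and 0.14.

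**Figure D5:**
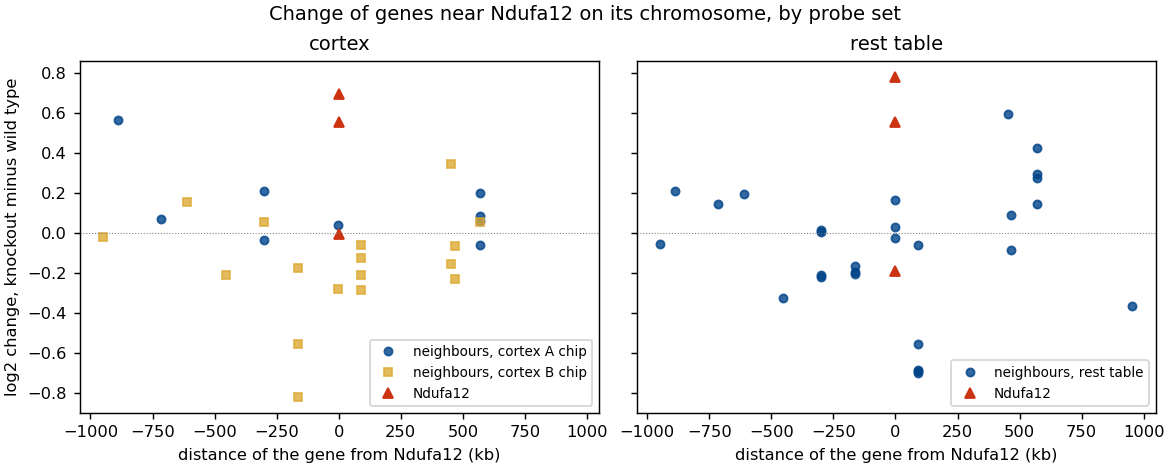
Log2 change (knockout minus wild type, vertical axis) of tested probe sets of genes within 1 Mb of Ndufa12, against the distance of the gene from Ndufa12 in kb (horizontal axis). Blue circles are the cortex A chip or rest, yellow squares the cortex B chip, and red triangles Ndufa12. The x_at sets of Ndufa12 at 0.56 and 0.70 in cortex stand beside neighbours between -0.82 and 0.56.

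Across the whole series, the share of probe sets with a listed signal lay between 54.0 and 58.0% on A chip arrays, 33.6 and 42.6% on B chip arrays and 49.2 and 51.6% on rest arrays. The one Brca1 probe set with signal, 1424629_at, averaged 41.3 ± 6.65 in wild-type and 52.3 ± 8.73 in knockout cortex (SD, n = 3 each), a log2 change of 0.25 with a limma adjusted p = 0.496, and differed by 0.03 in rest. Which exons it reads is not given in the sources used here, so it did not check the labels. On the A chip, 8 of 8 probe sets of mural and meningeal markers rose, and 7 of 15 of astrocytes. So did 6 of 9 of microglia and macrophages and 3 of 7 of endothelium. Those that fell were 7 of 9 of myelin and oligodendrocytes, 4 of 6 of interneurons and 1 of 7 of cerebellar neurons. Over the whole chip 2.3% of tested probe sets rose and 0.713% fell. Summed mural and meningeal signals ran from 2256.5 to 2538.3 in wild type and from 7414 to 9326.5 in knockout, with no marker empty on all arrays. Those of myelin and oligodendrocytes ran from 7327.7 to 9563.5 and from 2022.2 to 3199.2, with Mog empty throughout. None of 11 neuron, 2 cortical excitatory, 4 choroid plexus and 1 red blood cell marker probe sets was called on the A chip. Of them 1, 1, 4 and 0 had an unadjusted p under 0.05 by limma, beside 15.7% of all tested. On the B chip the choroid plexus marker Kcnj13 rose, 1 of 2 tested choroid plexus sets, beside 0.23% of all tested. In rest 5 of 10 mural and meningeal sets rose and 2 of 13 myelin sets fell, beside 0.145% and 0.168% of all tested. Of these 13 myelin sets, 12 had an unadjusted p under 0.05 by limma, beside 10.5% of all tested. Their median log2 change was -2.31, against -1.07 on the A chip. Summed myelin signals in rest ran from 45657 to 48470 in wild type and from 5357.5 to 26386 in knockout. The part of these marker changes in the Ndufa12 values was not tested.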

How the data were processed

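The deposited values are microarray intensities, 1 MAS5 signal per probe set and array, made with MAS5 per the submitters' processing notes; other settings, and the reason for empty cells, are not given in the sources used here. Total RNA was extracted with TRIZOL per the labels. Annotation to genes came from the platform tables: 20380 probe sets of the A chip, 14661 of the B chip and 34945 of the rest table had 1 gene, 691, 245 and 932 had several, and 1555, 7605 and 9160 had none.

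Each table was analysed alone. Arrays of a table were brought to the same 2% trimmed mean of the probe sets listed on all 6 arrays, and 16 was added before log2. A probe set was tested with at least 2 listed arrays per genotype and a mean level at or above the 40th percentile. Knockout and wild type (3 arrays each) were compared with limma 3.58.1 (lmFit, eBayes with trend) in R 4.3.3, with Benjamini-Hochberg adjustment over all tested probe sets and a threshold of 0.05. Summaries used Python 3.11.15 and pandas 2.3.3. The precision of these values is limited by the number of arrays. No arrays held identical values.

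Simulated data built on the real arrays held known changes of 1.5-fold and 2-fold. On the A chip 45% and 88% of them were recovered (12065 probe sets, 8 false calls). The shares were 7% and 44% on the B chip (7838, 2 false calls) and 26% and 66% in rest (21407, 2 false calls). Noise was drawn independently for each probe set and array, so shifts shared by many probe sets were absent. The rates hold for that setting only.

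The members, gene lists and markers were chosen with earlier results of these data known, and the motifs after the data were in hand. Named with full values were Ndufa12, members called in cortex, those with the largest non-overlapping changes in cortex, the X-linked members, members whose probe sets disagreed in sign in cortex, the largest rest differences, and called pathway or neighbouring genes. Atp5l, Ndufaf2, Nr2c1, Elk3, Tmcc3, Cep83os, Plxnc1 and the ends of each list's range were added after their values were seen. Alternatives covered scaling, offset, filters, empty cells, the variance model, a replicate block, a Y-linked term and leaving out each array. Members with probe sets of several genes were not analysed here.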

Additional observations from a re-analysis of the deposited data

How the results depend on the processing

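Over 35 results and up to 19 alternatives each, 630 of 657 alternative values kept their direction and side of the threshold or stayed within the spread. The log2 change of the Ndufa12 set 1455806_x_at in cortex ran from 0.62 to 0.73, with a limma adjusted p from 0.000194 to 0.0202, and that of 1433513_x_at from 0.47 to 0.64, with 0.0047 to 0.175. With the Y-linked term, which leaves knockout replicate 3 alone against the wild type, 1433513_x_at gave 0.47, the called member sets numbered 1 on the A chip and 1 in rest, and the A chip members' median was 0.0054. The rest count describes the contrast that chose Ndufa12 and supports nothing: it was 0 without the variance trend, and leaving out single arrays gave 1 to 2 (1 without wild-type replicate 2 or knockout replicate 2). The called sets of the other pathway lists on the A chip numbered 0 to 1 with single arrays left out (1 without replicate 1 of either genotype). The neighbour call on the B chip became 0 with quantile normalization, empty cells set low, no variance trend and the replicate block, and 0 to 0 with single arrays left out. The B chip members' median, 0.15 from 2 probe sets, was -0.027 with empty cells set low, 0.025 over sets listed on all 6 arrays and 0.02 to 0.18 with single arrays left out. With the s_at set alone, an alternative chosen after seeing the data, Ndufa12 minus the other subunits was -0.025 in cortex. Whether wild-type and knockout arrays of the same replicate number were paired was not settled. Correlations of same-numbered deviations were for the A chip 0.0093, 0.019 and -0.0088, for the B chip 0.16, 0.07 and 0.14, and for rest 0.02, 0.07 and 0.25. It was the B chip alone where each array lay closest to its own number. With the replicate block the A chip count stayed at 2, the x_at sets had limma adjusted p of 0.0018 and 0.0056, and Ndufa12 minus the other subunits was 0.40 (exact permutation p = 0.25 over sign changes of 3 pairs). The causes of these shifts were not tested.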
